A study of Mus musculus with 15 samples.

Results

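The 8 genes Gpihbp1, Aplnr, Plvap, Kit, Cd93, Ptprb, Sema3c and Tmem100 mark the general capillary cells of the mouse lung, and they were followed in whole lungs through bleomycin injury. They were taken from the deposited count table by gene symbol, after the Ensembl identifiers had been matched to GENCODE M21, and all 8 of 8 were found among 33340 genes. Levels were measured by RNA-seq in 15 libraries. The mice were C57BL/6, and per the study's methods male. The 4 day 0 libraries came from control lungs. Lungs of mice given bleomycin into the trachea at 5 U/kg were collected at day 7 (4 libraries), day 14 (4 libraries) and day 21 (3 libraries). Bleomycin breaks DNA and leads to scarring when it reaches the airways, and the question of the time course was how the transcriptome shifts as fibrosis develops. The controls were labelled as untreated, so the instillation itself and the drug cannot be told apart. For day 0 replicate 4 the title says control and the treatment tag says bleomycin. The title was followed, and where leaving this library out changed a member's call the value without it is given. The partner and marker genes were not refitted without it. The study's text calls the libraries of days 0, 7 and 14 biological replicates, while the labels name no animal for each library, so the p-values measure the spread between these libraries.

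The alveolar capillary bed is built of 2 endothelial cell types. Aerocytes are large, thin cells specialised for gas exchange, while general capillary cells regulate vessel tone and act as the progenitors that maintain and repair the bed. The 8 genes span the surface and signalling equipment of the general capillary cell, and several are shared with other cells: Plvap is also found in systemic venous endothelium, Kit in mast cells and Cd93 in monocytes. In a bulk sample, fewer cells of a type and less RNA per cell cannot be told apart.

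All members were well measured. Every library held at least 211 counts of each of the 8 genes, on totals of 15652008 to 18020661 counts, and all 8 were among the 17457 genes tested. Levels are given as CPM, read counts scaled to the TMM-adjusted library size. A gene is called higher or lower where edgeR's quasi-likelihood test gave a Benjamini-Hochberg adjusted p under 0.05 and the fold change was over 1.5. The percentage of counts that fell on the 16 mitochondrial genes varied between libraries. This mitochondrial share was 2.282%, 2.31%, 4.221% and 4.045% in the 4 day 0 libraries, 2.027% to 2.151% at day 7, 2.102% to 4.136% at day 14 and 2.658% to 4.013% at day 21.

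On mm10, Gpihbp1 (ENSMUSG00000022579) lies at chr15:75596628-75599481 on the plus strand, and Aplnr (ENSMUSG00000044338) at chr2:85136225-85139923 on the plus strand. Plvap (ENSMUSG00000034845) lies at chr8:71497765-71511752 on the minus strand, and Kit (ENSMUSG00000005672) at chr5:75574916-75656722 on the plus strand. Cd93 (ENSMUSG00000027435) lies at chr2:148436640-148443563 on the minus strand, and Ptprb (ENSMUSG00000020154) at chr10:116275523-116389535 on the plus strand. Sema3c (ENSMUSG00000028780) lies at chr5:17574281-17730268 and Tmem100 (ENSMUSG00000069763) at chr11:90030348-90036508, both on the plus strand. No exon of a member overlapped an exon of another annotated gene. Values count reads over whole genes and do not separate isoforms.

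Lower levels after bleomycin were the common direction. At day 7 all 8 members had a negative log2 fold change against day 0, and 2 of them, Ptprb and Tmem100, were called lower, in a comparison that called 7.36% of all genes lower. At day 14 all 8 were negative and 3, Ptprb, Sema3c and Tmem100, were called lower, against 11.2% of all genes. At day 21, 7 of 8 were negative and 1, Tmem100, was called lower, against 10.1% of all genes. No member was called higher at any of the 3 days, where 8.78%, 12.0% and 12.4% of all genes were. The median log2 fold change of the members was -0.60, -0.54 and -0.44 at days 7, 14 and 21, while that of all tested genes was 0.01, 0.02 and 0.02. In 5 members at day 7, 4 at day 14 and 3 at day 21, every later library lay below every day 0 library. The same held for 13.2%, 14.4% and 16.0% of all genes. These 3 comparisons share their day 0 libraries.

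Markers of other lung cells moved over the same days. The summed level of 6 fibroblast genes had a median of 1356 CPM at day 0 and of 4142, 3402 and 5676 CPM at days 7, 14 and 21, with the matrix genes Col1a1, Col3a1 and Lum called higher at each day and the fibroblast transcription factor gene Tcf21 called lower at days 14 and 21 (log2 fold change -0.90 and -1.39). The fibroblast genes Pdgfra (0.26, -0.23 and 0.20) and Dcn (0.37, -0.42 and 0.14) were not called at any day. The summed level of 7 alveolar epithelial genes had a median of 30460 CPM at day 0 and of 26730, 19770 and 8943 CPM later, with 1, 3 and 5 called lower. Of 6 cell cycle genes all were called higher at each day, and their sum had a median of 32.61 CPM at day 0 and of 198.4, 223.9 and 127.9 CPM later. The part of the cells these genes mark in the members' levels was not tested.

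**Figure D1:**
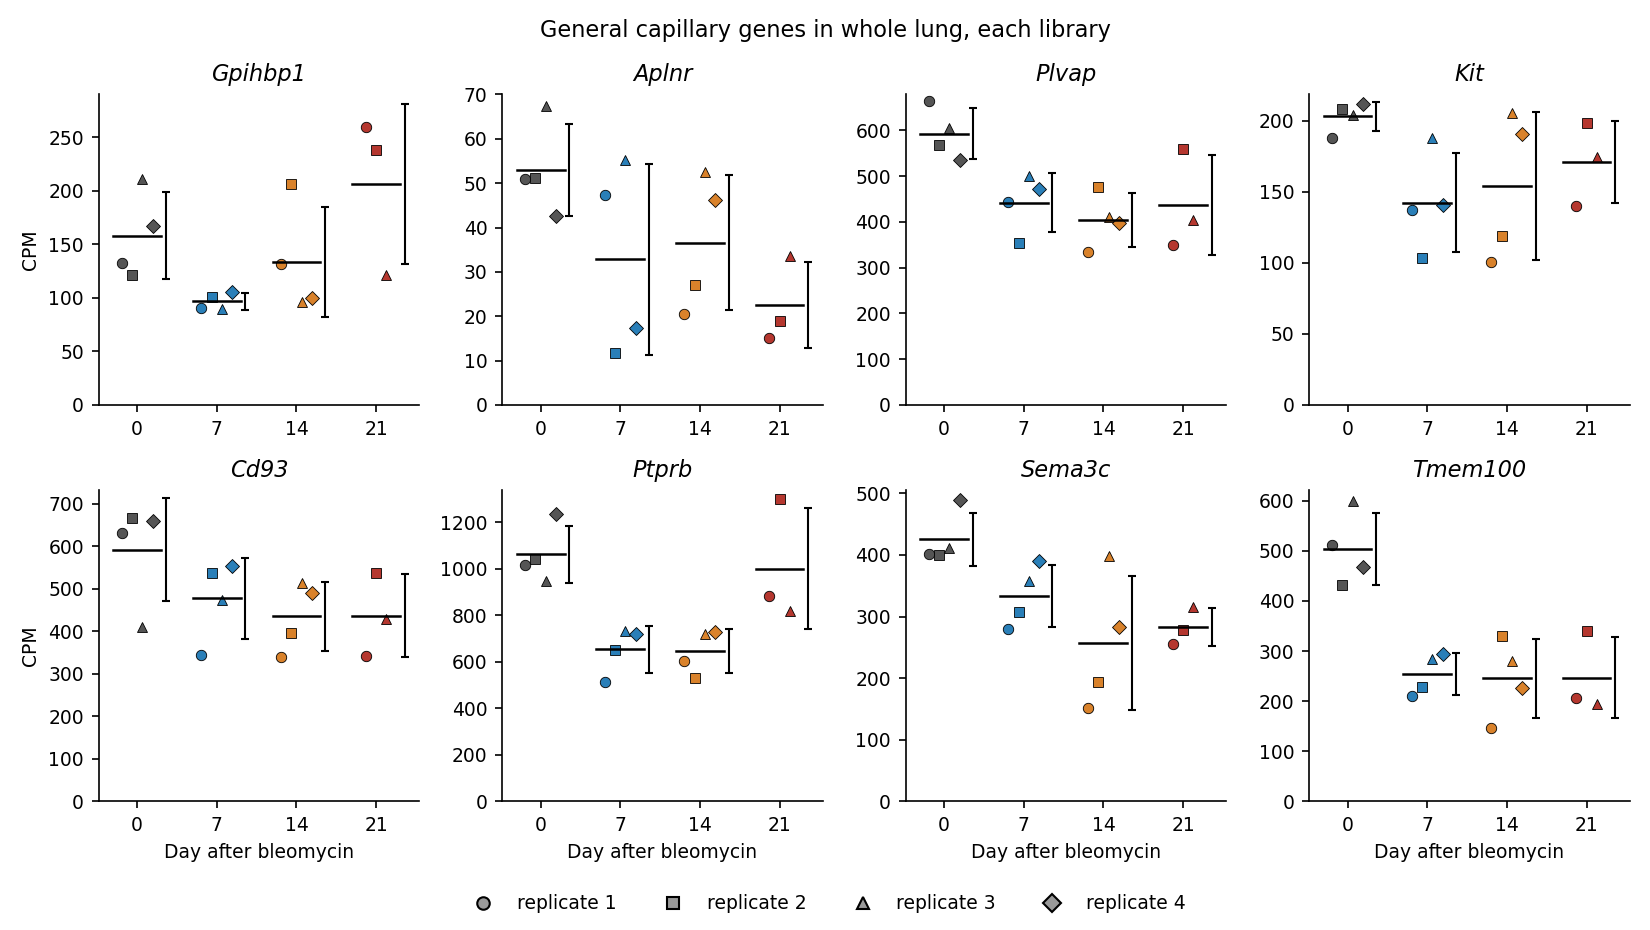
CPM (vertical axis, from 0) of each member in each of the 15 libraries by day after bleomycin (horizontal axis). Symbols mark the replicate number, horizontal lines the group mean and bars the SD. Tmem100 is lower in every later library than in any day 0 library, while the day 21 libraries of Ptprb (820.3, 883.1 and 1301 CPM) and Gpihbp1 (121.3, 238.2 and 259.9 CPM) lie on both sides of the day 0 range.

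Tmem100 was the only member called lower at all 3 days. It encodes a small membrane protein of endothelium that is induced by BMP9 and BMP10 through the receptor ALK1. It was measured at 511.4, 432.8, 599.3 and 468.4 CPM in the 4 day 0 libraries. The day 7 libraries held 210.4, 228.7, 285.0 and 294.6 CPM, the day 14 libraries 146.3, 330.9, 279.5 and 226.7 CPM, and the day 21 libraries 205.4, 340.6 and 194.8 CPM. Every library after bleomycin was below the lowest day 0 library, and the 3 later days overlapped each other throughout. The mean of 503 ± 71.8 CPM (SD, n = 4) at day 0 went to 50.6%, 48.9% and 49.1% of that level at days 7, 14 and 21. The log2 fold changes were -0.98 (SE 0.23, edgeR adjusted p = 0.00677), -1.03 (SE 0.23, adjusted p = 0.00304) and -1.03 (SE 0.25, adjusted p = 0.00648). When the mitochondrial share was added as a covariate, Tmem100 at day 7 was at -0.70 and not called (adjusted p = 0.0904). Within the libraries of low share it was -0.91 (adjusted p = 0.00499). The part of the share in the day 7 result was not tested further.

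Ptprb was called lower at days 7 and 14, and all 3 of its day 21 libraries lay above those of both days. The tests between the later days, given below, called this rise against day 7 only, and not in every alternative. Ptprb encodes VE-PTP, the endothelial phosphatase that holds the angiopoietin receptor TIE2 and VE-cadherin in a dephosphorylated state. Its levels at day 0 were 1019, 1044, 949.4 and 1237 CPM. They were 514.2, 649.8, 734.0 and 719.0 CPM at day 7, 604.8, 532.4, 722.0 and 726.8 CPM at day 14, and 883.1, 1301 and 820.3 CPM at day 21. All 8 libraries of days 7 and 14 lay below all day 0 libraries, whereas day 21 held libraries on both sides of the day 0 range. The log2 fold change against day 0 was -0.70 (SE 0.17, edgeR adjusted p = 0.00815) at day 7 and -0.72 (SE 0.17, adjusted p = 0.00447) at day 14. At day 21 it was -0.09 (SE 0.18, 95% interval -0.47 to 0.30, adjusted p = 0.761), and without replicate 2, the highest of the 3, it was -0.36 (adjusted p = 0.158). Over all alternatives the day 21 value ran from -0.36 to -0.0023. When the mitochondrial share was added as a covariate, this day 7 call was lost (log2 fold change -0.64, adjusted p = 0.0566), and within the low-share libraries it was kept (-0.67, adjusted p = 0.0142).

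Sema3c was called lower at day 14. It encodes a secreted class 3 semaphorin, a guidance cue that is read by neuropilins and plexin D1 on endothelium. The day 0 libraries held 401.4, 399.3, 411.7 and 488.7 CPM, and the day 7 libraries 279.3, 306.7, 357.7 and 390.6 CPM. Day 14 spread from 152.0 and 193.9 CPM in replicates 1 and 2 to 397.5 and 283.6 CPM in replicates 3 and 4, and day 21 held 255.2, 278.2 and 315.2 CPM. Every later library was below every day 0 library at all 3 days, with day 14 replicate 3 only just below them. The log2 fold change was -0.35 (SE 0.22, edgeR adjusted p = 0.265) at day 7, -0.73 (SE 0.22, adjusted p = 0.0207) at day 14 and -0.59 (SE 0.24, adjusted p = 0.081) at day 21. The day 14 call was lost without day 0 replicate 4 (-0.67, adjusted p = 0.0524), without day 14 replicate 1 (-0.57, a fold change under the threshold) and without day 14 replicate 2 (-0.64, adjusted p = 0.06). It was also lost within the libraries of high mitochondrial share (-0.64, adjusted p = 0.134). At day 21 the value was past both thresholds with DESeq2 (-0.61, adjusted p = 0.0469), with no filter on low counts (-0.63, adjusted p = 0.0413), when days 0 and 21 were fitted alone (-0.62, adjusted p = 0.0114) and, barely, with the mitochondrial covariate (-0.61, an adjusted p that rounds to 0.05).

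**Figure D2:**
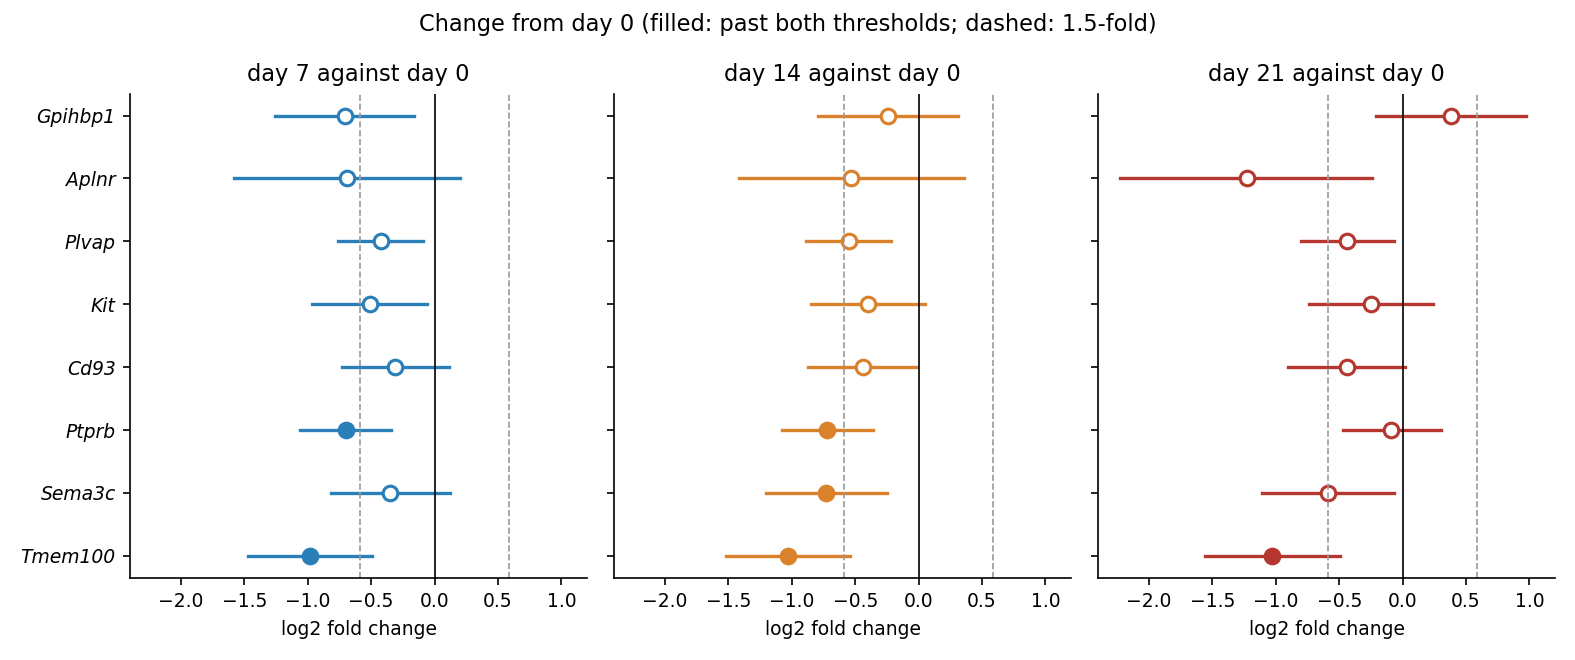
Log2 fold change against day 0 (horizontal axis) of each member at days 7, 14 and 21, with its 95% interval from edgeR. Filled points passed an adjusted p of 0.05 and a fold change of 1.5 (dashed lines), and only Tmem100 did so at all 3 days.

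Gpihbp1 was the member with a positive log2 fold change at day 21, and it was not called against day 0 at any day. It encodes the protein that carries lipoprotein lipase across the capillary endothelium and holds it on the luminal face. At day 0 it was measured at 132.8, 121.6, 211.3 and 167.4 CPM, and at day 7 at 90.34, 101.0, 89.69 and 106.0 CPM. All day 7 libraries lay below all day 0 libraries, but the log2 fold change of -0.71 (SE 0.26) had an edgeR adjusted p of 0.0563. DESeq2 put it past the threshold (-0.73, adjusted p = 0.0266), as did RLE factors (adjusted p = 0.0495), no filter on low counts (adjusted p = 0.0236), a filter on a mean of at least 1 CPM (adjusted p = 0.0468), a fit to days 0 and 7 alone (adjusted p = 0.00645) and leaving out day 0 replicate 2 (-0.84, adjusted p = 0.0401). Day 14 was split, with 132.0 and 206.8 CPM in replicates 1 and 2 and 95.77 and 100.3 CPM in replicates 3 and 4. Day 21 held 259.9, 238.2 and 121.3 CPM, so that replicates 1 and 2 were above every other library of the series and replicate 3 was just under the day 0 range. The summed level of 7 cardiac muscle genes was 757.9 CPM in day 21 replicate 1 and 18.8 and 24.94 CPM in replicates 2 and 3. It was 23.69, 44.38, 283.8 and 193.4 CPM in the day 0 libraries, 645.5 CPM in day 7 replicate 4 and 25.9 to 57.84 CPM in the other 7 libraries of days 7 and 14. The part of heart tissue in the Gpihbp1 level was not tested. Against day 0 the log2 fold change was -0.24 (SE 0.26, adjusted p = 0.5) at day 14 and 0.38 (SE 0.28, 95% interval -0.21 to 0.97, adjusted p = 0.323) at day 21. Over the alternatives these ran from -0.56 (without day 14 replicate 2) to -0.10 (without day 0 replicate 3) at day 14, and from 0.15 (without day 21 replicate 1) to 0.61 (without day 21 replicate 3) at day 21, with no call.

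Among the later days, Gpihbp1 and Ptprb were the 2 members called higher at day 21 than at day 7, where 5.20% of all genes were. Gpihbp1 was higher by 1.09 on the log2 scale (SE 0.28, edgeR adjusted p = 0.02) and Ptprb by 0.61 (SE 0.18, adjusted p = 0.0374). In both, all 3 day 21 libraries were above all 4 day 7 libraries. For the other 6 members the log2 difference lay between -0.55 and 0.26. Both calls rested on single libraries: that of Gpihbp1 was lost without day 7 replicate 1 (1.05, adjusted p = 0.058), day 7 replicate 3 (1.06, adjusted p = 0.0538), day 21 replicate 1 (0.87, adjusted p = 0.0954) or day 21 replicate 2 (0.95, adjusted p = 0.0749). The call of Ptprb was lost without any 1 of the 4 day 7 libraries (0.51 to 0.67, adjusted p = 0.0548 to 0.112), without day 21 replicate 1 (0.68, adjusted p = 0.0562) or without day 21 replicate 2 (0.36, adjusted p = 0.217). The mitochondrial share was over 2.5% in every day 21 library and under it in every day 7 library. With it as a covariate neither was called (Gpihbp1 0.75, adjusted p = 0.171, and Ptprb 0.55, adjusted p = 0.144).

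No member was called between day 14 and day 7, where edgeR called 6.00% of all genes and DESeq2 called 0 members. At an unadjusted p under 0.05 there were 0 members by edgeR, against 25.0% of all genes. None was called between day 21 and day 14 either, where edgeR called 0 genes in all and DESeq2 called 0 members. There 2 members, and 9.82% of all genes, had an unadjusted p under 0.05: Gpihbp1 (log2 fold change 0.63, unadjusted p = 0.0382, adjusted p = 0.482) and Ptprb (0.63, unadjusted p = 0.00307, adjusted p = 0.297). For Ptprb all 3 day 21 libraries were again above all 4 day 14 libraries.

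Aplnr had the lowest level of the members and was split within groups. It encodes the G protein-coupled receptor for apelin, whose ligand is made by aerocytes and other endothelial cells. The day 0 libraries held 51.0, 51.16, 67.42 and 42.51 CPM. Day 7 was split into 47.24 and 55.20 CPM in replicates 1 and 3 and 11.78 and 17.3 CPM in replicates 2 and 4, and day 14 into 20.62 and 27.04 CPM in replicates 1 and 2 and 52.46 and 46.3 CPM in replicates 3 and 4. Day 21 held 15.15, 18.92 and 33.53 CPM, all below day 0. The coefficient of variation of the day 7 libraries was 65.5%, against 19.6% at day 0. Aplnr had a log2 fold change of -0.69 (SE 0.42, edgeR adjusted p = 0.245) at day 7, -0.53 (SE 0.42, adjusted p = 0.354) at day 14 and -1.23 (SE 0.47, 95% interval -2.23 to -0.24, adjusted p = 0.0589) at day 21. The day 21 value was past the threshold without day 21 replicate 3 (-1.68, adjusted p = 0.0354), with no filter on low counts (-1.27, adjusted p = 0.0141) and when days 0 and 21 were fitted alone (-1.26, adjusted p = 0.00805).

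Plvap had adjusted p-values near the threshold at all 3 days. It encodes the protein of the diaphragms that close caveolae and fenestrae of endothelium. The 4 day 0 libraries held 663.4, 566.8, 604.4 and 535.6 CPM, the day 7 libraries 442.2, 353.0, 500.6 and 471.1 CPM, and the day 14 libraries 333.6, 476.1, 410.1 and 397.5 CPM. All 8 libraries of days 7 and 14 were below day 0, while day 21, at 348.8, 559.1 and 403.5 CPM, overlapped it through replicate 2. Plvap had a log2 fold change of -0.42 (SE 0.16, edgeR adjusted p = 0.0601) at day 7, -0.55 (SE 0.16, adjusted p = 0.0143, a fold change under 1.5) at day 14 and -0.44 (SE 0.17, adjusted p = 0.0652) at day 21. Plvap passed both thresholds at day 14 without day 0 replicate 2 (-0.60), day 0 replicate 4 (-0.62) or day 14 replicate 2 (-0.66). At day 21 it passed them without day 21 replicate 2 (-0.69, adjusted p = 0.00757). Plvap also marks systemic venous endothelium, and the 4 other genes listed for those cells, Col15a1, Vwa1, Ackr1 and Selp, were all called higher at every day. Their summed level lay between 10.92 and 23.16 CPM at day 0, between 51.85 and 87.46 CPM at day 7, between 66.52 and 131.8 CPM at day 14 and between 78.29 and 162.3 CPM at day 21. Most of that sum was Col15a1, which averaged 10.8, 51.7, 67.2 and 105 CPM over the 4 time points, while Ackr1 had 0 to 10 counts in the day 0 libraries. Their part in the Plvap level was not tested.

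Kit was not called at any day. It encodes the receptor tyrosine kinase for stem cell factor. The day 0 libraries were tightly grouped at 187.9, 208.2, 203.9 and 211.7 CPM, while day 7 held 137.1, 103.6, 188.0 and 140.7 CPM. Day 14 held 100.4 and 119.0 CPM in replicates 1 and 2 and 205.4 and 190.6 CPM in replicates 3 and 4, and day 21 held 140.3, 198.0 and 174.3 CPM. At each later day at least 1 library lay within the day 0 range. Kit had a log2 fold change of -0.51 (SE 0.21, edgeR adjusted p = 0.0901), -0.40 (SE 0.21, adjusted p = 0.166) and -0.25 (SE 0.23, 95% interval -0.74 to 0.24, adjusted p = 0.452) at days 7, 14 and 21. Without day 7 replicate 3 the day 7 value was past the threshold (-0.67, adjusted p = 0.0425). Kit is a defining gene of mast cells too. Of 8 other mast cell markers listed, 4 were too low to be tested. The mast cell protease gene Cpa3 averaged 1.89, 1.79, 3.15 and 1.88 CPM over the 4 time points, Tpsab1 had at most 1 count in a library, and Tpsb2 at most 8. The list's summed level, 28.43 to 143.8 CPM over the libraries, was almost wholly Hdc, histidine decarboxylase. Hdc averaged 99.8, 100, 39.7 and 32.9 CPM and was called lower at days 14 and 21 (log2 fold change -1.33 and -1.60). The part of mast cells in the Kit level was not tested.

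Cd93 was not called at any day either. It encodes a C-type lectin-like receptor of endothelium that binds multimerin 2 and is also carried by monocytes. It was measured at 630.8, 667.1, 411.0 and 659.3 CPM at day 0, at 343.3, 537.8, 473.9 and 553.6 CPM at day 7, at 339.8, 396.5, 513.9 and 490.7 CPM at day 14 and at 342.3, 537.6 and 428.5 CPM at day 21. Day 0 replicate 3 stood far under the other 3 day 0 libraries and inside the range of all later days. Cd93 had a log2 fold change of -0.31 (SE 0.20, edgeR adjusted p = 0.268), -0.44 (SE 0.20, adjusted p = 0.0996) and -0.44 (SE 0.22, adjusted p = 0.14) at days 7, 14 and 21. Without day 0 replicate 3, Cd93 was past the thresholds at day 14 (-0.61, adjusted p = 0.0283) and day 21 (-0.61, adjusted p = 0.0421). Of 6 monocyte genes, 1, 2 and 1 were called higher at days 7, 14 and 21 and none lower, where 8.78%, 12.0% and 12.4% of all genes were higher. Their summed level had a median of 319 CPM at day 0 and of 476.3, 432.1 and 549.6 CPM at the later days, and their part in the Cd93 level was not tested.

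Of the 8 members, 5 (Plvap, Kit, Cd93, Sema3c and Tmem100) had their lowest value of all 15 libraries in day 14 replicate 1. That library also held the lowest summed level of the 12 pan-endothelial genes, 1786 CPM, where the other 3 day 14 libraries held 2349 to 2904 CPM. Its summed level of 6 fibroblast genes was 8817 CPM, against 2592 to 3563 CPM in the others of day 14. The part of these levels in the day 14 values was not tested; without that library the number of members called at day 14 was 2.

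Set against exon length, the order of the members changed little over the time course. At day 0, Plvap and Tmem100 led with 298.2 ± 27.7 and 284.7 ± 40.6 CPM per kb (SD, n = 4), and their libraries overlapped. Cd93, Ptprb, Gpihbp1 and Sema3c followed at 88.67, 79.69, 61.97 and 59.56 CPM per kb, each overlapping its neighbour in this order. Kit at 22.77 and Aplnr at 14.33 CPM per kb closed the order and overlapped no neighbour. At day 21 the order ran Plvap (220 CPM per kb), Tmem100 (139.8), Gpihbp1 (80.84), Ptprb (75.1), Cd93 (65.32), Sema3c (39.62), Kit (19.17) and Aplnr (6.091). Gpihbp1 had thus moved from the fifth place to the third, although its 3 day 21 libraries overlapped those of Ptprb.

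To ask whether the members moved with the endothelium as a whole, they were also set against the summed counts of 12 pan-endothelial genes (Pecam1, Cdh5, Egfl7, Esam, Cldn5, Erg, Robo4, Ecscr, Clec14a, Icam2, Emcn and Sox18). That sum lay between 3094 and 3557 CPM at day 0, between 2188 and 2757 CPM at day 7, between 1786 and 2904 CPM at day 14 and between 2295 and 2915 CPM at day 21, so all later libraries were below day 0. On this scale the median of all genes shifted up, by 0.49, 0.54 and 0.46 (log2) at days 7, 14 and 21, and changes of a member are relative to the endothelial genes only. No member was called at day 7 or day 14, where 35.6% and 43.4% of all genes were, in either direction. At day 21, 2 of the 8 were called, Tmem100 lower, as were 4.55% of all genes, and Gpihbp1 higher, as were 30.8%. At an unadjusted p under 0.05 there was 1 member at day 7 and 1 at day 14, Tmem100 both times and lower. Of all genes, 51.2% and 57.7% passed that p at these days, 3.54% and 5.53% in the lower direction.

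**Figure D3:**
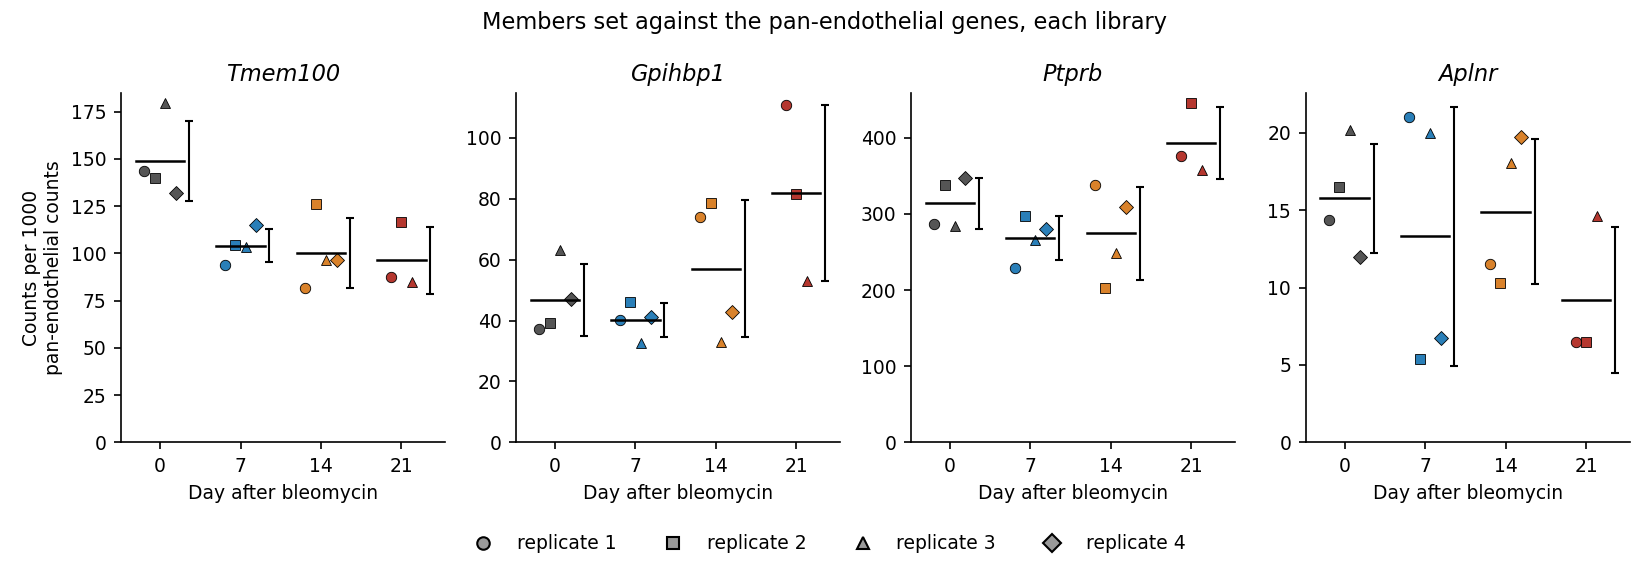
Counts per 1000 counts of the 12 pan-endothelial genes (vertical axis, from 0) for Tmem100, Gpihbp1, Ptprb and Aplnr in each library by day. Lines are group means and bars the SD. Tmem100 stays below day 0 in every later library, while Ptprb at day 21 is above it in every library.

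Tmem100 was also lower against the endothelial reference, at an adjusted p under 0.05 on each later day with all libraries fitted to day alone. It stood at 143.8, 139.9, 179.6 and 131.7 counts per 1000 pan-endothelial counts in the day 0 libraries. The later values were 93.73, 104.5, 103.4 and 114.9 at day 7, 81.92, 125.9, 96.25 and 96.54 at day 14, and 87.52, 116.8 and 84.91 at day 21, so that all 11 later libraries were below day 0 on this scale too. The log2 fold change was -0.51 (SE 0.18, edgeR adjusted p = 0.0278), -0.57 (SE 0.18, adjusted p = 0.0135) and -0.63 (SE 0.19, adjusted p = 0.0179). At day 7 the value was -0.41 (adjusted p = 0.0934) once day 0 replicate 3 was left out, and -0.47 (adjusted p = 0.0843) or -0.52 (adjusted p = 0.0616) once day 7 replicate 1 or 2 was. The mitochondrial covariate gave -0.38 (adjusted p = 0.189). At day 14 the adjusted p was at most 0.0498 in all 12 alternatives, and the fold change was over 1.5 in 8 of them, down to -0.73 with the geometric mean of the endothelial genes as reference. With all libraries fitted to day alone and the summed reference, the fold change was over 1.5 only at day 21. That call was lost without day 0 replicate 3 (-0.52, adjusted p = 0.0544), day 21 replicate 1 (-0.56, adjusted p = 0.0801) or day 21 replicate 3 (-0.54, adjusted p = 0.0854).

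Gpihbp1 stood higher against the endothelial reference at day 21, at 110.7, 81.7 and 52.86 counts per 1000, than at day 0, at 37.34, 39.3, 63.32 and 47.07. Of the 3 day 21 libraries, 2 were above all day 0 libraries. The log2 fold change was 0.81 (SE 0.29, edgeR adjusted p = 0.0352), and it was not called without day 0 replicate 1 (0.71, adjusted p = 0.0964), day 0 replicate 2 (0.73, adjusted p = 0.0765), day 0 replicate 4 (0.81, adjusted p = 0.0671), day 21 replicate 1 (0.53, adjusted p = 0.206) or day 21 replicate 2 (0.81, adjusted p = 0.0575). Replacing the sum by the geometric mean of the 12 genes also ended the call (0.65, adjusted p = 0.0995). Ptprb was not called on this scale, at -0.23 (adjusted p = 0.33), -0.19 (adjusted p = 0.393) and 0.32 (SE 0.20, adjusted p = 0.199), although its day 21 libraries, at 376.2, 446.2 and 357.5 per 1000, were all above the day 0 range of 284.5 to 347.8. For Aplnr the values were -0.24 (adjusted p = 0.62), -0.08 (adjusted p = 0.871) and -0.78 (SE 0.42, adjusted p = 0.142). Plvap, Kit, Cd93 and Sema3c lay between -0.06 and 0.16 at day 7, between -0.27 and 0.07 at day 14 and between -0.14 and 0.17 at day 21, with no adjusted p under 0.251.

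Among the other endothelial genes, those of aerocytes, the second cell type of the capillary bed, were mostly called lower by day 14, and those of systemic veins were called higher. Of 7 aerocyte genes (Car4, Ednrb, Apln, Tbx2, Fibin, Chst1 and Kdr), 2, 5 and 6 were called lower at days 7, 14 and 21 and none higher. The median log2 fold change of the aerocyte list was -0.48, -0.87 and -1.19, where that of the 8 general capillary genes was -0.60, -0.54 and -0.44. The difference between the 2 lists was not tested. Of all genes, 7.36%, 11.2% and 10.1% were called lower at these days and 8.78%, 12.0% and 12.4% higher. Of the 12 pan-endothelial genes, 3, 3 and 2 were called lower and 0, 1 and 1 higher. Among 7 arterial genes, 4 were called lower at day 7, 3 lower and 2 higher at day 14, and 2 higher at day 21. Of 6 venous genes, 1 was called lower at day 7, 1 higher at day 14 and 2 higher at day 21. Of 6 lymphatic genes, 0, 3 and 5 were called higher at the 3 days and none lower. The 4 systemic venous genes were called higher at all 3 days, with a median log2 fold change of 1.76, 2.06 and 2.55.

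**Figure D4:**
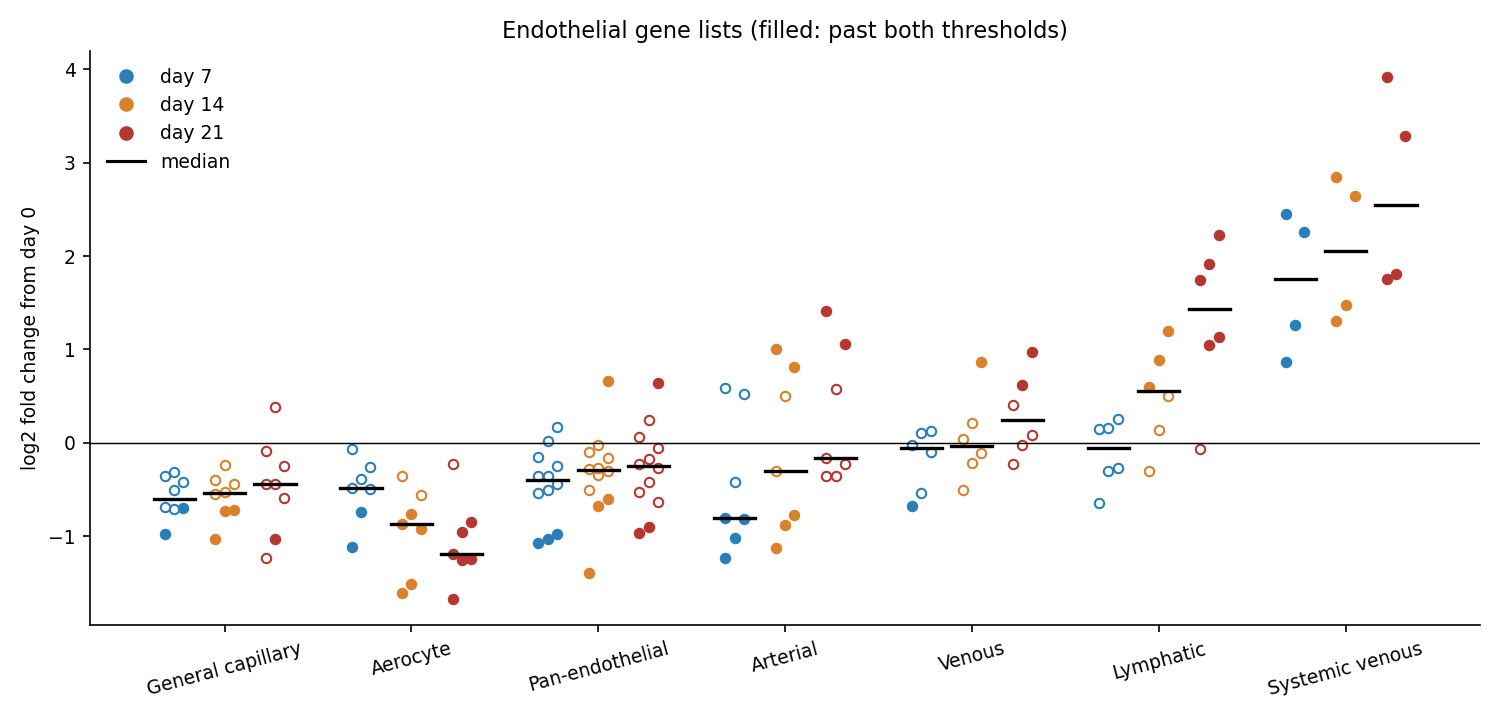
Log2 fold change against day 0 (vertical axis) of the genes of 7 endothelial lists at days 7, 14 and 21. Each point is a gene, filled where it passed both thresholds, and the bar is the median of the list. The general capillary genes lie mostly below 0 at all 3 days, at medians of -0.60, -0.54 and -0.44.

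The ligands, receptors and pathway partners of the members were taken from a list of 34 genes, of which 32 were tested. The 2 left out were Apela and Bmp10, with at most 2 counts and 1 count in a library. Against day 0, 1 partner was called higher and 5 lower at day 7, 4 higher and 12 lower at day 14, and 5 higher and 6 lower at day 21. Of all genes, 8.78%, 12.0% and 12.4% were called higher and 7.36%, 11.2% and 10.1% lower at these days.

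Around Gpihbp1, Lpl, the lipase that GPIHBP1 binds, rose. It was measured at 283.2, 319.1, 163 and 309.6 CPM at day 0 and at 425.2, 417, 269 and 377.5 CPM at day 7. It reached 816.9, 639.2, 532.4 and 462.1 CPM at day 14 and 1231, 738 and 887.1 CPM at day 21. All libraries of days 14 and 21 were above all of day 0. The log2 fold change was 0.47 (not called) at day 7, 1.19 (SE 0.24, edgeR adjusted p = 0.00143) at day 14 and 1.82 (SE 0.25, adjusted p = 0.000104) at day 21. Lpl is made by adipocytes and macrophages as well, and 5 adipocyte genes summed to a median of 42 CPM at day 0 and of 15.3, 2.707 and 2.412 CPM at the later days. Macrophage genes had no list of their own. Of the 6 monocyte genes, 2 were called higher at day 14 (Itgam and Csf1r) and 1 at day 21 (Itgam). Of all genes, 12.0% and 12.4% were called higher at these days. At both days 5 of the 6 monocyte genes were above 0, and Ly6c2 was below it (-0.27 and -0.32). Lpl is made in heart muscle too. The cardiac muscle genes summed to 757.9 CPM in day 21 replicate 1, the library with the highest Lpl level. In day 21 replicates 2 and 3 they summed to 18.8 and 24.94 CPM. Day 7 replicate 4, at 645.5 CPM, and day 0 replicate 3, at 283.8 CPM, held 377.5 and 163 CPM of Lpl. The value of 163 CPM was the lowest Lpl level of the series. The part of adipocytes, macrophages and heart muscle in the Lpl level was not tested. Angptl4, an inhibitor of the lipase, and Cd36, a fatty acid transporter, were called lower at day 14 (-0.96 and -0.80). Lmf1, which the lipase needs for folding, was not called.

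Around Aplnr, the ligand gene Apln was called lower at day 21 (log2 fold change -1.19, SE 0.34, edgeR adjusted p = 0.0161). Its day 21 libraries, at 12.06, 9.857 and 25.59 CPM, were all below the 4 day 0 libraries, at 46.08, 35.43, 29.9 and 33.25 CPM. Apln is itself an aerocyte marker. At days 7 and 14 its log2 fold change was -0.07 and -0.36, neither called.

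Of 5 genes listed with Plvap, 1 was called lower at day 7, 3 at day 14 and 2 at day 21. Of all genes, 7.36%, 11.2% and 10.1% were called lower at these days. Those called were caveolar genes, which build the membrane pits that the PLVAP diaphragm closes. Cav1 was lower at all 3 days (-0.60, -1.07 and -0.96), Cavin2 at days 14 and 21 (-1.23 and -1.35) and Cav2 at day 14 (-0.79). The Cavin2 level went from 760.1 to 911.3 CPM over the day 0 libraries to 209.6 to 506.5 CPM at day 14 and 182.2 to 449.9 CPM at day 21, with no overlap. Cavin1 and Vegfa were not called. Kitl, which encodes the ligand of KIT, was not called at any day, with log2 fold changes of -0.16, -0.32 and -0.31. Of the CD93 partners, Igfbp7 was called higher at days 14 and 21 (0.88 and 0.96) and Mmrn2, the multimerin, at none.

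Tek, which encodes TIE2, the angiopoietin receptor that PTPRB restrains, and the related gene Tie1 were called lower with Ptprb at day 7. Tek went from 390.5, 347.4, 393.3 and 430.5 CPM at day 0 to 220.9, 235.6, 287.8 and 239 CPM at day 7 and 167.2, 198.3, 252.7 and 225.9 CPM at day 14, without overlap. Its log2 fold change was -0.67 (SE 0.14, edgeR adjusted p = 0.00339) at day 7 and -0.89 (SE 0.14, adjusted p = 0.000231) at day 14. At day 21 it was -0.48 (adjusted p = 0.0243, a fold change under 1.5), with 237.7, 323.5 and 276.1 CPM, still below all day 0 libraries. Tie1 was lower at day 7 (-0.69). Angpt1, the activating ligand, was lower at days 14 and 21 (-0.98 and -0.70). Angpt2, the context-dependent ligand, was not called against day 0 and was called higher at day 21 than at day 7 (0.90).

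Of 4 receptor genes listed for SEMA3C, the neuropilins and plexins, 1 was called higher at day 7 and 2 at days 14 and 21, and none lower, where 8.78%, 12.0% and 12.4% of all genes were called higher. Nrp2 was called higher at days 7, 14 and 21 (0.64, 0.85 and 0.95), and its day 0 libraries, at 70.09 to 99.42 CPM, lay below all later ones, at 124.7 to 223.5 CPM. Plxnd1 was higher at days 14 and 21 (0.61 and 0.65). Nrp1 and Plxna2 were not called.

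The BMP9 and ALK1 pathway, which drives Tmem100, held 12 listed genes. The receptor genes Acvrl1 (ALK1), Eng (endoglin) and Bmpr2 were called lower at day 14 (-0.61, -0.80 and -0.78), and Eng also at day 21 (-0.62). The signal transducer Smad9 was lower at all 3 days (-1.18, -1.58 and -1.41). It stood at 22.65, 20.5, 10.73 and 14.28 CPM at day 0, and at 3.444 to 7.495 CPM at day 14 and 4.391 to 7.635 CPM at day 21, below every day 0 library. The inhibitory Smad6, itself a target of the pathway, was lower at days 7 and 14 (-0.65 and -1.09). Smad1 was called higher at day 21 (0.65), while the target genes Id1 and Id3, together with Smad5 and Smad7, were not called. The ligand gene Gdf2, which encodes BMP9 and is made mainly in the liver, had 1 to 45 counts per library and was not called.

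**Figure D5:**
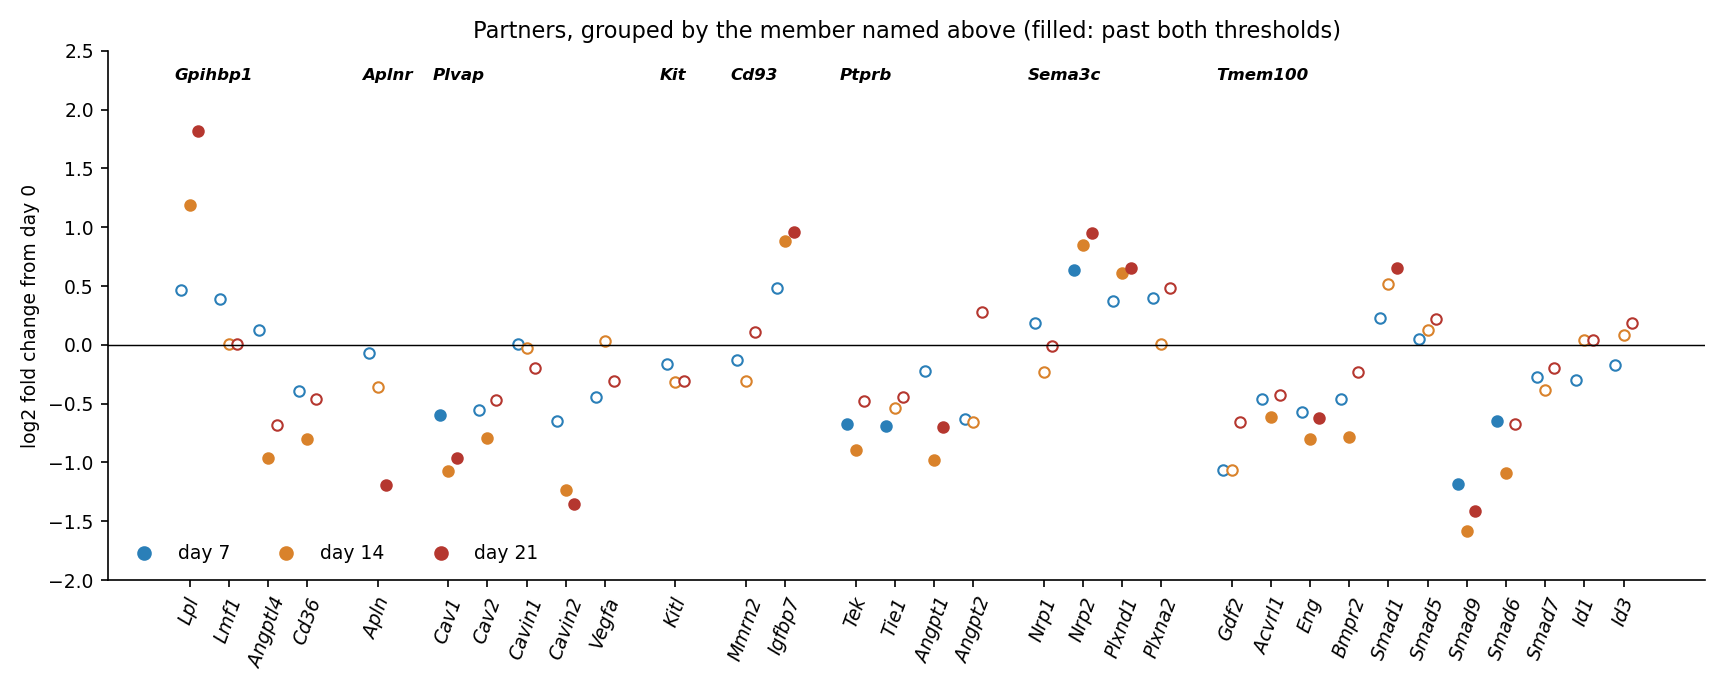
Log2 fold change against day 0 (vertical axis) of the 32 tested partner genes at days 7, 14 and 21, grouped under the member they belong with. Filled points passed both thresholds. Lpl, Nrp2 and Igfbp7 lie above 0 and Smad9, Cav1, Cavin2 and Tek below it at all 3 days.

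Across the 15 libraries, which share the day effect, the members did not vary as a single block. Plvap and Tmem100 ran most closely together (Pearson r of log2 CPM = 0.911, and 0.804 after the day means were removed). Kit ran with Sema3c (0.739 and 0.803) and with Aplnr (0.703 and 0.741), and Cd93 with Sema3c (0.717 and 0.587) and with Ptprb (0.611 and 0.745). Kit and Ptprb stood at 0.71 and 0.556. Gpihbp1 had correlations from -0.259 to 0.464 with the other members, and from -0.477 to 0.406 after the day means were removed. These are descriptions over 15 libraries that differed in mitochondrial share and in marker levels of other cells.

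Among 11813 genes with a mean of at least 5 CPM, the gene whose level ran most like that of Tmem100 was Ramp2 (r = 0.977 over 15 libraries), which encodes the partner of the adrenomedullin receptor in endothelium, followed by Hpgd (0.957), the prostaglandin-degrading dehydrogenase. Plvap was nearest to Bsdc1 (0.927) and also to Ramp2 (0.923). The nearest genes of Ptprb were Rasal2 (0.961) and Pde3a (0.954), those of Sema3c were Car14 (0.940) and Pitpnc1 (0.934), and those of Gpihbp1 were Fmo4 (0.916) and Itpr3 (0.906). Cd93 ran with Smurf2 (0.909) and Trim56 (0.906), Kit with Khnyn (0.889) and Zfp760 (0.885), and Aplnr with Lmo2 (0.882) and Tpra1 (0.877). These r values are the highest among 11813 genes, over libraries that share the day effect. After the day means were removed, they lay between 0.82 (Itpr3 with Gpihbp1) and 0.939 (Rasal2 with Ptprb).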

How the data were processed

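Polyadenylated RNA of whole lungs was sequenced by the study. The authors aligned trimmed reads to mm10 (GRCm38) with HISAT2 2.1.0, left out reads that aligned to several places, and deposited raw read counts per Ensembl gene from HTSeq 0.6.0, without normalization. Which gene annotation was counted, and with which strand setting, is not given in the sources used here. Of the 33340 identifiers, 33267 matched GENCODE M21, which gave symbols, coordinates and exon lengths. Groups and replicate numbers came from the sample titles. The series text gives 3 replicates per time point, while the titles, which were followed, give 4 at days 0, 7 and 14 and 3 at day 21.

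Counts were tested in R 4.3.3 with edgeR 4.0.16: filterByExpr (17457 genes kept), TMM factors, and glmQLFit and glmQLFTest with a single fit of the 15 libraries to the 4 days and no other term. P-values were adjusted over all tested genes by the Benjamini-Hochberg method. The 1.5-fold threshold is the one the study used for mouse data. Standard errors are on the log2 scale, and 95% intervals used 15.5 degrees of freedom. Correlations used log2 CPM with a prior count of 2. For the comparison with endothelium, the summed counts of the 12 pan-endothelial genes took the place of the library size. Total counts of 15652008 to 18020661 per library left counting error small beside the spread between libraries, and the common biological coefficient of variation was 22.8%. The script for these tests was tested on simulated data. Figures were drawn with matplotlib 3.10.9.

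Alternatives were RLE factors, scaling by total counts, a filter on a mean of at least 1 CPM, no filter, replicate number as a block, the mitochondrial share as a covariate, fits within libraries under 2.5% or over 3.5% of that share, the 2 days alone, glmTreat, no fold threshold, DESeq2 1.42.0, limma 3.58.1 voom, each library left out in turn, and 2 other endothelial references. The genes named were the 8 members, the partner genes listed for each, with values for those past the thresholds, and for each member the 2 genes with the highest Pearson correlation over the 15 libraries among genes with a mean of at least 5 CPM, predicted genes left out. Other genes are named as members of fixed marker lists. The members, the lists and the tests were chosen with earlier results of these data known.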

Additional observations from a re-analysis of the deposited data

Results flagged for a closer look

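Among 48 groups of 4 libraries examined (8 members at days 0, 7 and 14, as CPM and per 1000 pan-endothelial counts), 3 held a library far from the others, where chance gives about 1 in 20. All 3 were at day 0. Cd93 was 411 CPM in day 0 replicate 3 and 630.8 to 667.1 CPM in the other 3 libraries. Sema3c was 488.7 CPM in day 0 replicate 4 and 399.3 to 411.7 CPM in the others. Plvap was 150.6 counts per 1000 pan-endothelial counts in day 0 replicate 4 and 181.1 to 186.5 in the others. Day 0 replicate 4 is the library whose title and treatment label disagree.

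The change from day 0 differed between days 7 and 21 for 2 members by the direct test of day 21 against day 7. The difference was 1.09 (log2, edgeR adjusted p = 0.02) for Gpihbp1 and 0.61 (adjusted p = 0.0374) for Ptprb, with 3 of 3 day 21 libraries above all day 7 libraries in both. The call was lost in 5 of 16 alternatives for Gpihbp1 and in 8 of 16 for Ptprb, the mitochondrial share as a covariate among them for both. That share was 2.027% to 2.151% at day 7 and 2.658% to 4.013% at day 21.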

How the results depend on the processing

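Tmem100 at days 14 and 21 and Ptprb at day 14 stayed called lower under every alternative run for them but glmTreat, 18 at day 14 and 16 at day 21, where no fit within libraries of low or high mitochondrial share was run. The glmTreat method tests for a fold change over 1.5 and called 0 members in each of days 7, 14 and 21 against day 0 and day 21 against day 7 (2, 3, 1 and 2 with the main test). At day 21 the count of members called lower was 2 with DESeq2, 2 with the mitochondrial covariate, and 3 with no filter or with the 2 days alone. With the covariate, it was 0 at day 7 and 0 for day 21 against day 7, and the 2 days alone gave 1 for the latter. DESeq2 called 3 members at day 7, and the high-share libraries alone gave 2 at day 14. Leaving out each library in turn gave 2 to 3 members at day 7, 2 to 4 at day 14, 1 to 2 at day 21 and 0 to 2 for day 21 against day 7. Against the pan-endothelial counts it gave 0 at day 7, 0 to 1 at day 14 and 0 to 1 at day 21. With 4 endothelial genes as reference the counts at days 7 and 14 were 1 and 1. With the geometric mean of the 12 genes they were 1 at day 14 and 1 at day 21, and with the covariate 1 at day 14. The causes were not tested, beyond the fewer samples in a fit. The shares of all genes called under these alternatives and the replicate block are not given here. The counts therefore cannot be set against such shares.

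Among the results refitted (all members against day 0, Gpihbp1 and Ptprb between the later days, and Tmem100, Gpihbp1, Ptprb and Aplnr against the pan-endothelial counts), direction turned for 2 genes, neither past a threshold there. Ptprb at day 14 against day 7 (-0.02) became 0.04 and 0.03 without day 7 replicates 3 and 4, and 0.02 and 0.07 without day 14 replicates 1 and 2, with -0.12 as the lowest value over the libraries left out. Aplnr against the pan-endothelial counts (-0.24 at day 7 and -0.08 at day 14) became 0.02 at day 7 without day 7 replicate 2, with -0.55 as the lowest. At day 14 it became 0.06, 0.02 and 0.06 without day 0 replicate 3, day 14 replicate 1 and day 14 replicate 2, with -0.24 as the lowest.

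Deviations of libraries with the same replicate number correlated at -0.244 to 0.397, and in no comparison were all pairs over 0.1, so the numbers were not taken as pairs. With a replicate block, 2, 3 and 2 members were called at days 7, 14 and 21, where Aplnr joined Tmem100 at day 21 (-1.35, adjusted p = 0.0228). Relative to the pan-endothelial counts the replicate block gave 0, 1 and 2 members, with Tmem100 called at day 14 (-0.59), and at day 21 Gpihbp1 lost (0.68, adjusted p = 0.0744) and Aplnr gained (-0.93, adjusted p = 0.0458).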

Other observations

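Day 14 was split the same way by several members. Replicates 1 and 2 held 20.62 and 27.04 CPM of Aplnr, 100.4 and 119.0 CPM of Kit and 152.0 and 193.9 CPM of Sema3c. Replicates 3 and 4 held 52.46 and 46.3, 205.4 and 190.6, and 397.5 and 283.6 CPM of these genes. Gpihbp1 was split in the opposite direction, at 132.0 and 206.8 CPM in replicates 1 and 2 and 95.77 and 100.3 CPM in replicates 3 and 4. The mitochondrial share was 2.102% in replicate 1 and 3.791%, 4.136% and 3.735% in replicates 2, 3 and 4. The summed pan-endothelial level was 1786, 2629, 2904 and 2349 CPM in replicates 1 to 4. The summed lymphatic level was 894.9 and 1031 CPM in replicates 1 and 2 and 595.8 and 672.5 CPM in replicates 3 and 4. The aerocyte genes summed to 484.6 and 497.3 CPM in replicates 1 and 2 and to 718.5 and 572 CPM in replicates 3 and 4. The split of day 14 was noticed in the data, and no test was run on it.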
